A study of Mus musculus with 6 samples.

Results

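Rab GTPases, SNAREs and the proteins that tether, dock and prime vesicles were followed here as a family of 107 genes, taken from the 15212 gene rows of the count table because their symbols begin with Rab and a digit, Stx and a digit, Stxbp, Vamp and a digit, Snap and a digit, Syt and a digit, Sytl, Unc13 or Exoc. The libraries were bulk RNA-Seq profiles of pulmonary group 2 innate lymphoid cells (ILC2s), with 3 WT and 3 Vsir-/- libraries. Both genotypes were BALB/c mice of 5 to 8 weeks that had received 0.5 µg of rmIL-33 by the intranasal route on each of 3 days, and their activated ILC2s (aILC2s) were taken on day 4. The Vsir-/- allele came from a B6N.129S5 stock on the BALB/c background, and the mice lacked Vsir in all tissues, not in ILC2s alone. The labels call the cells both freshly isolated and cultured, and nothing states that the 3 libraries of a genotype come from separate mice, so p-values here measure the spread between these libraries, which may be technical.

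Rab proteins are small GTPases that mark each membrane compartment in their GTP-bound state and recruit effectors such as motors and tethers. SNAREs on a vesicle and on its target zip into a bundle that draws the membranes together, while Munc18 proteins (Stxbp genes), Munc13 proteins (Unc13 genes) and synaptotagmin-like proteins (Sytl genes) prepare the vesicle for this step and the exocyst tethers it at the plasma membrane. In lymphocytes and mast cells, Rab27a, Unc13d, Stx11 and Stxbp2 are best known for the release of granules, and human deficiency of UNC13D, STX11 or STXBP2 causes familial hemophagocytic lymphohistiocytosis. The general secretory route begins with the ER and Golgi members of the family. By which route ILC2s release their cytokines was not tested here.

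Vsir was counted 109, 185 and 126 times in WT replicates 1 to 3 and 0, 2 and 0 times in Vsir-/- replicates 1 to 3, in keeping with the labelled genotypes. The libraries held 15680892 to 29197999 counts, and WT replicate 2 was the deepest. The family took 0.638% to 0.701% of a library's counts. All 10 ILC2 markers had a row and were tested, and their summed level was 13629 to 14197 CPM in WT and 22831 to 25175 CPM in Vsir-/- libraries, with 5 higher and 4 lower; Gata3 (734 to 1473 CPM) was among the lower, and Il1rl1 (536 to 630.2 CPM) did not pass. CPM are counts scaled to library size with TMM factors. Of 6 T cell markers, 3 had a row, and their summed level was 45.0 to 50.5 CPM in WT and 12.8 to 17.9 CPM in Vsir-/- libraries; Cd3e and Cd3g were lower in Vsir-/- libraries, while Trac stayed at or under 0.17 CPM. Of 6 mast cell and basophil markers, 4 had a row and summed to 1.69 to 3.55 CPM in WT and 3.92 to 5.85 CPM in Vsir-/- libraries, with Cpa3 lower, Mcpt8 higher, Cma1 at or under 0.82 CPM and Tpsb2 at 0 in all WT libraries. The 5 epithelial markers summed to 25.6 to 26.6 and 6.93 to 8.84 CPM, mostly Epcam, and 5 of 7 macrophage and dendritic cell markers to 55.7 to 70.8 and 35.2 to 38.1 CPM, mostly Xcr1. Eomes, the NK cell marker with a row, was at or under 0.06 CPM, and S100a8, that of neutrophils, at or under 0.38 CPM. Of 4 endothelial markers 1, Pecam1, had a row and was higher, at 35.6 to 41.1 CPM in WT and 48.3 to 53.8 CPM in Vsir-/- libraries, as was Tubb3, the 1 of 4 neuronal markers with a row, at 0.07 to 0.70 and 1.22 to 1.74 CPM, while 2 of 4 B cell markers with a row (11.1 to 17.4 and 10.9 to 14.9 CPM) and Ccr3, 1 of 4 eosinophil markers (7.22 to 8.45 and 8.16 to 8.84 CPM) held no called gene.

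Of the 107 genes, 102 had enough counts to be tested, and 39 of these passed an edgeR adjusted p of 0.05 in the fit over all 13166 tested genes, with 16 higher and 23 lower in Vsir-/- aILC2s. That is 38.2% of the tested members, beside 38.9% of all tested genes in either direction (18.9% higher, 20.1% lower), so the family as a whole was called about as often as any gene. In the 6 fits that left out a library, 9 to 17 members were called higher, with 9 without WT replicate 1, 10 without WT replicate 2 or Vsir-/- replicate 1 and 17 without WT replicate 3, and 18 to 24 were called lower. A change of at least 1 on the log2 scale together with the threshold was met by 12 members, where 10.7% of all genes met it. CPM of the 2 genotypes did not overlap for 52 members (51.0%), beside 49.4% of all genes. The median log2 fold change, Vsir-/- over WT throughout, was -0.11 over the members and -0.01 over all genes. The 5 members not tested were Rab34, Rab36, Rab7b, Syt5 and the pseudogene Rab7-ps1, each with at most 16 counts in a library. In bulk RNA, fewer cells of a type and less RNA per cell cannot be told apart, and this holds for each value that follows.

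**Figure D1:**
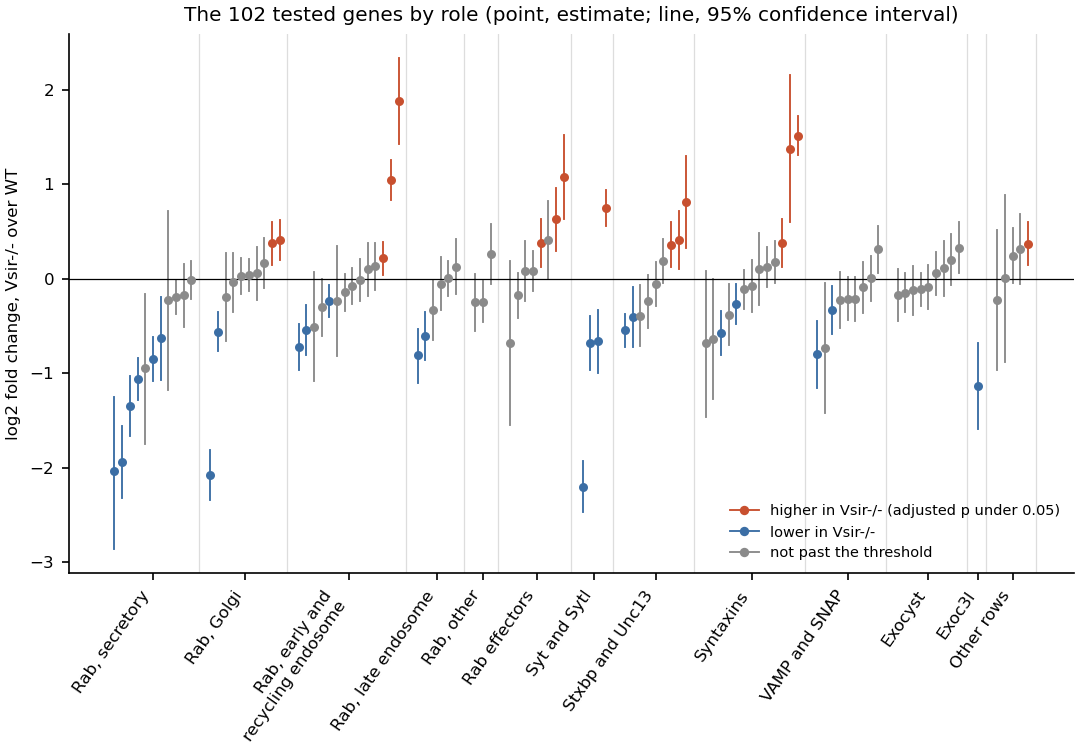
Log2 fold change (vertical axis, Vsir-/- over WT) of the 102 tested members, ordered within their role groups; each point is an estimate and each line its 95% confidence interval, with colour for the call at an edgeR adjusted p of 0.05. All 11 points of the secretory Rab group lie below 0, the 9 exocyst points lie between -0.17 and 0.33, and the Syt and Sytl group holds the lowest point, Sytl1 at -2.20, beside Sytl3 at 0.75.

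Promoters of 5 genes that carry the results below are printed to show where they start; they were chosen after their values were seen. Each is the RefSeq window of GRCm38.p6 from 250 bases before to 50 bases after a gene's start, written 5′ to 3′ on the gene's strand; for Rab27a it is the upstream of 2 windows, and the other, not printed, holds the E-box CACGTG and no RUNX letters. Sytl1 (chr4:133263038-133263337, minus strand) and Rab27a (chr9:73044560-73044859, plus strand) were lower in Vsir-/- aILC2s, while Sytl3 (chr17:6658809-6659108, plus strand), Stx11 (chr10:12964210-12964509, minus strand) and Rab20 (chr8:11478591-11478890, minus strand) were higher. Capitals mark matches to the motifs searched, on either strand.
Sytl1: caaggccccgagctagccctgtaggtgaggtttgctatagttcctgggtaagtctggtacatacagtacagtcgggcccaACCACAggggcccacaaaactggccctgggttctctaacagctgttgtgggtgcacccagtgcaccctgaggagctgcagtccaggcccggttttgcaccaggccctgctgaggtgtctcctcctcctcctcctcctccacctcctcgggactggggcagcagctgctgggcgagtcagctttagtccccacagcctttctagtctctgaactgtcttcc
Sytl3: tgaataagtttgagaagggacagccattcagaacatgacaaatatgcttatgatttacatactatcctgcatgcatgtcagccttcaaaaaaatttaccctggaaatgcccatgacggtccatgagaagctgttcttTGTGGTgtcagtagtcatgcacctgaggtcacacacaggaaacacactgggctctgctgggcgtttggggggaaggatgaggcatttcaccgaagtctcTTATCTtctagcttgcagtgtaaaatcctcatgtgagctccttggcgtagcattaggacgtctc
Rab27a: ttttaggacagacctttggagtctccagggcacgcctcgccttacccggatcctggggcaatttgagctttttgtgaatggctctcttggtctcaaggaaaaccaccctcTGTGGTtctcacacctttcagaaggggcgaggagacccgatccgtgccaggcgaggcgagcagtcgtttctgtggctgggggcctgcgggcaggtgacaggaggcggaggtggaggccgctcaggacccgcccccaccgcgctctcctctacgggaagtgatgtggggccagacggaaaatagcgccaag
Stx11: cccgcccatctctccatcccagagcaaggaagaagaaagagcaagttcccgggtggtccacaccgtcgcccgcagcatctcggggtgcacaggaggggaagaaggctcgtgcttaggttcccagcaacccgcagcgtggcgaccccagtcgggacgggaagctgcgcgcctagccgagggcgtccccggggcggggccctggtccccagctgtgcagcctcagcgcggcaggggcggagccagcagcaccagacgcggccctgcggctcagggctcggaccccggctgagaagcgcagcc
Rab20: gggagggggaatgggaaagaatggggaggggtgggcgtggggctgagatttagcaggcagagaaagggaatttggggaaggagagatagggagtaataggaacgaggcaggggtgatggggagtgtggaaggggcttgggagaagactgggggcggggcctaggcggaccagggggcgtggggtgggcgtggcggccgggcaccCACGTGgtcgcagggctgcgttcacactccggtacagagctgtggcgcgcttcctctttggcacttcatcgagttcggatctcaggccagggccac
The windows of Sytl1, Sytl3 and Rab27a each hold the RUNX letters TGTGGT or their reverse complement ACCACA, which occur in 16.8% of all 32851 windows and in 17.4% of the 109 windows of the 86 members with an entry. The window of Sytl3 also holds the GATA letters AGATAA as their reverse complement TTATCT (11.2% of all windows, 4.59% of members' windows), and that of Rab20 the E-box CACGTG (7.15% of all, 14.7% of members'). None of the other letters searched is in these windows: AP-1 (TGANTCA, 7.81% of all windows), CRE (TGACGTCA, 1.79%) and FOXO (GTAAACA, 3.65%). No motif searched overlaps another in these windows, and a match here describes letters only. Windows were found for 14 of the 16 members that were higher and 16 of the 23 that were lower.

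Role groups were drawn up with earlier results of these data known. The Rab GTPases of secretory vesicles and the plasma membrane were the group with the most uniform sign. Of 11 tested genes, 6 were lower and none was higher (54.5%, where 38.9% of all genes were called and 20.1% were lower), and all 11 estimates were below 0, with a median log2 fold change of -0.84 beside -0.05 for the 33 other Rab GTPases tested. Values of the genotypes did not overlap for 8 of the 11 (72.7%, where 49.4% of all genes did not overlap). Over the refits with other settings, between 5 and 7 of the group were called lower and none higher.

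Rab37, a Rab of mast cell granules, stood at 17.2, 19.8 and 19.7 CPM in WT replicates 1 to 3 and at 4.18, 4.38 and 6.29 CPM in the Vsir-/- replicates. No value was shared between the genotypes, the ratio of the means was 3.82 (WT over Vsir-/-), and the log2 fold change was -1.93 (SE 0.17, edgeR adjusted p = 1.38e-05). Rab27b, which acts beside Rab27a in granule docking in mast cells and platelets, had 17.5, 19.4 and 22.6 CPM in WT and 8.54, 7.42 and 7.53 CPM in Vsir-/- libraries. Its groups did not overlap, and its log2 fold change was -1.34 (SE 0.14, edgeR adjusted p = 4.73e-05). Rab27a, required for the docking of lytic granules in cytotoxic T cells, had 41.6, 44.4 and 43.8 CPM in WT and 25.4, 25.2 and 21.9 CPM in Vsir-/- libraries, a log2 fold change of -0.84 (SE 0.11, edgeR adjusted p = 1.39e-04). All 3 Vsir-/- values of Rab27a lay below the lowest WT value, as they did for Rab3d. Rab3d, a Rab of the granules of exocrine and mast cells, had 45.3, 51.0 and 47.7 CPM in WT and 22.4, 23.9 and 22.9 CPM in Vsir-/- libraries, and fell by 1.06 on the log2 scale (SE 0.10, edgeR adjusted p = 2.26e-05). Rab44, a large Rab with a role in mast cell granule release in the mouse, was scarce, with 89 counts over the WT and 17 over the Vsir-/- libraries. Its levels were 1.69, 1.25 and 1.51 CPM against 0.385, 0.365 and 0.311 CPM, which do not overlap (log2 fold change -2.03, SE 0.36, edgeR adjusted p = 0.00130). Rab3a, the Rab of synaptic vesicles, had 6.01, 7.10 and 7.92 CPM in WT and 4.50, 3.59 and 5.54 CPM in Vsir-/- libraries (log2 fold change -0.63, SE 0.20, edgeR adjusted p = 0.0289). The groups were next to each other, and Rab3a kept its call only when WT replicate 1 or Vsir-/- replicate 3 was the library left out, with an adjusted p of up to 0.108 in the other 4 fits.

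The abundant Rabs of constitutive transport from the Golgi to the plasma membrane did not pass the test. Rab8a had 226, 230.2 and 241 CPM in WT and 189.8, 212 and 209 CPM in Vsir-/- libraries (log2 fold change -0.19, 95% interval -0.38 to -0.01, edgeR adjusted p = 0.0866). Its groups did not overlap, whereas those of Rab8b and Rab10 did. The intervals of their log2 fold changes were -0.50 to 0.16 for Rab8b, where WT replicate 3 at 435 CPM stood apart from 305 and 286 CPM, and -0.22 to 0.19 for Rab10. Rab26, known from secretory granule maturation, was at 1.69, 1.56 and 1.98 CPM against 0.964, 0.486 and 1.24 CPM, without overlap but with an edgeR adjusted p of 0.0581 (it was called lower without Vsir-/- replicate 3), and Rab13 lay at or under 0.626 CPM in every library. As a sum, Rab3a, Rab3d, Rab27a, Rab27b, Rab37 and Rab44 went from 138.5 ± 7.94 CPM in WT to 64.9 ± 0.429 CPM in Vsir-/- libraries (SD, n = 3), and Rab8a, Rab8b and Rab10 from 784 ± 106 to 715 ± 38.9 CPM; these sums were formed after the genes' values were seen and were not tested. Between the same libraries, the marker sums of T cells, epithelial cells, and macrophages and dendritic cells were lower in Vsir-/-. The sum of mast cell and basophil markers, Pecam1 and Tubb3 were higher. The part of such cells in the lower Rab levels was not tested.

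**Figure D2:**
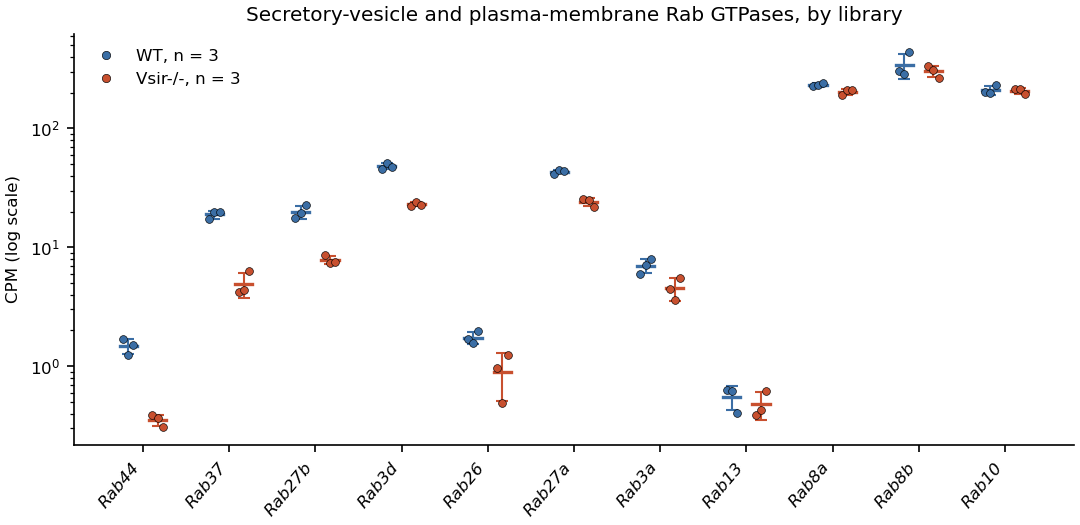
CPM on a log axis of the 11 Rab GTPases of secretory vesicles and the plasma membrane, with a point for each library, a bar for the mean and whiskers for the SD (WT blue, Vsir-/- red, 3 libraries each). Rab44, Rab37, Rab27b, Rab3d, Rab27a, Rab3a, Rab26 and Rab8a show no overlap between genotypes, while Rab13, Rab8b and Rab10 do.

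Synaptotagmin-like proteins bind GTP-loaded Rab27 and link it to membranes or motors, and the 3 Sytl genes of these cells moved in different directions. Sytl1 had 54.0, 54.4 and 49.6 CPM in WT replicates 1 to 3 and 10.0, 12.7 and 11.6 CPM in the Vsir-/- replicates. The WT values were all the higher ones, by 4.60-fold in the means, and the log2 fold change of -2.20 (SE 0.12, edgeR adjusted p = 4.96e-07) was the lowest of the 102 tested members. Sytl2 had 134, 127 and 181 CPM in WT and 93.2, 108 and 78.5 CPM in Vsir-/- libraries, a log2 fold change of -0.66 (SE 0.15, edgeR adjusted p = 0.00575). The spread of Sytl2 was wide within both genotypes, though without overlap. Sytl3, whose protein couples lytic granules to a kinesin in cytotoxic T cells, had 76.4, 80.7 and 74.5 CPM in WT and 136, 130.1 and 125 CPM in Vsir-/- libraries. All 3 Vsir-/- values exceeded the highest WT value, and the log2 fold change was 0.75 (SE 0.09, edgeR adjusted p = 7.03e-05). The counts of Sytl3 were not whole numbers in any of the 6 libraries, and how the counting gave fractions is not given in the sources used here. Per kilobase of exon, the ratio of Sytl1 to Sytl3 was 1.42, 1.35 and 1.34 in WT and 0.148, 0.196 and 0.188 in Vsir-/- libraries (two-sided exact permutation p = 0.1, the smallest that 3 against 3 can give). Per kilobase, Sytl1 was therefore the higher of the pair in each WT library and the lower in each Vsir-/- library. In CPM, without division by exon length, Sytl3 was the higher in all 6 libraries. The change in order thus rests on the merged exon lengths, which need not be those of the transcripts made. The ratio of Sytl2 to Sytl3 per kilobase moved from 0.697 ± 0.164 to 0.259 ± 0.0367 (SD, n = 3; two-sided exact permutation p = 0.1). Both ratios had to separate the genotypes, since Sytl1 and Sytl2 were lower and Sytl3 higher without overlap, so their p-values add no support. The sum of the 3 genes was 277 ± 24.3 CPM in WT and 235 ± 18.2 CPM in Vsir-/- libraries.

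Syt11, a synaptotagmin that does not bind calcium, had 17.0, 16.7 and 16.3 CPM in WT and 11.3, 10.9 and 9.15 CPM in Vsir-/- libraries (log2 fold change -0.67, SE 0.13, edgeR adjusted p = 0.00207). With the Sytl genes, all 4 tested members of this group passed the threshold, 3 lower and 1 higher, where 38.9% of all genes did. Syt5, the remaining synaptotagmin with a row, had 7 to 16 counts in each library and was not tested.

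The genes that prime and fuse lytic granules did not share a direction. Unc13d, the Munc13 of lytic granules, had 209, 223 and 214 CPM in WT and 144, 151 and 149 CPM in Vsir-/- libraries, a log2 fold change of -0.54 (SE 0.08, edgeR adjusted p = 3.54e-04). Stx11, a SNARE of lytic granule fusion, had 69.2, 61.5 and 64.2 CPM in WT and 189, 173 and 195 CPM in Vsir-/- libraries, 2.86-fold higher in the means (log2 fold change 1.52, SE 0.09, edgeR adjusted p = 8.97e-07). Neither gene's groups overlapped, and the gaps between genotypes were wide beside the spread within them. Stxbp2, the Munc18 that binds Stx11, had 90.6, 99.7 and 82.2 CPM in WT and 100.3, 95.7 and 114 CPM in Vsir-/- libraries; its groups overlapped, with a log2 fold change of 0.19 (95% interval -0.05 to 0.42, edgeR adjusted p = 0.190). Per kilobase of exon, Unc13d over Stx11 went from 2.99 ± 0.272 to 0.718 ± 0.0578 and Stxbp2 over Stx11 from 1.42 ± 0.191 to 0.563 ± 0.0287 (SD, n = 3; two-sided exact permutation p = 0.1 for each). The order of these 3 transcripts per kilobase was thus Unc13d, Stxbp2, Stx11 in WT and Stx11, Unc13d, Stxbp2 in Vsir-/- libraries. Since Unc13d was lower and Stx11 higher without overlap, their ratio had to separate the genotypes, and its p-value adds no support. The same holds for Stxbp2 over Stx11, where Stxbp2 moved little beside the rise of Stx11. Stx11 lies on chromosome 10, as Vsir does, at a distance of 47.4 Mb; of the other members on this chromosome, Rab32 at 49.8 Mb was lower, Rab3ip at 56.5 Mb was higher, Stx7 at 36.2 Mb, Stxbp5, Rab21 and Rab5b did not pass, and Rab36, the nearest at 14.7 Mb, had too few counts to be tested. Whether sequence carried along with the allele takes part in any of these was not tested.

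Among the other Munc18 and Munc13 genes, 3 were higher and 1 was lower. Unc13b had 4.88, 3.60 and 4.43 CPM in WT and 8.61, 5.41 and 8.46 CPM in Vsir-/- libraries (log2 fold change 0.81, SE 0.22, edgeR adjusted p = 0.0132). The groups of Unc13b did not overlap, but without WT replicate 2 its adjusted p was 0.0543. Unc13a averaged 8.08 ± 0.302 CPM in WT and 6.09 ± 0.277 CPM in Vsir-/- libraries (SD, n = 3), passed with an edgeR adjusted p of 0.0443 and lost its call whichever of the 6 libraries was left out (adjusted p up to 0.130). Both are paralogs of Unc13d best known from synapses. Stxbp3, the Munc18 that pairs with Stx4a, rose from 29.2 ± 1.93 to 37.5 ± 2.78 CPM (log2 fold change 0.36, edgeR adjusted p = 0.0221), a call lost without WT replicate 1 or Vsir-/- replicate 1 (adjusted p up to 0.109). Stxbp6 was 10.0 ± 1.23 CPM in WT and 13.3 ± 0.666 CPM in Vsir-/- libraries (edgeR adjusted p = 0.0376), and 4 of the 6 fits without a library lost the call (adjusted p up to 0.142), namely those without replicate 1 or 2 of either genotype. Stxbp4 and the tomosyn gene Stxbp5 did not pass, although Stxbp4 was called without WT replicate 2. This group thus held 3 higher and 2 lower of 9 tested (55.6%, where 38.9% of all genes were called).

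**Figure D3:**
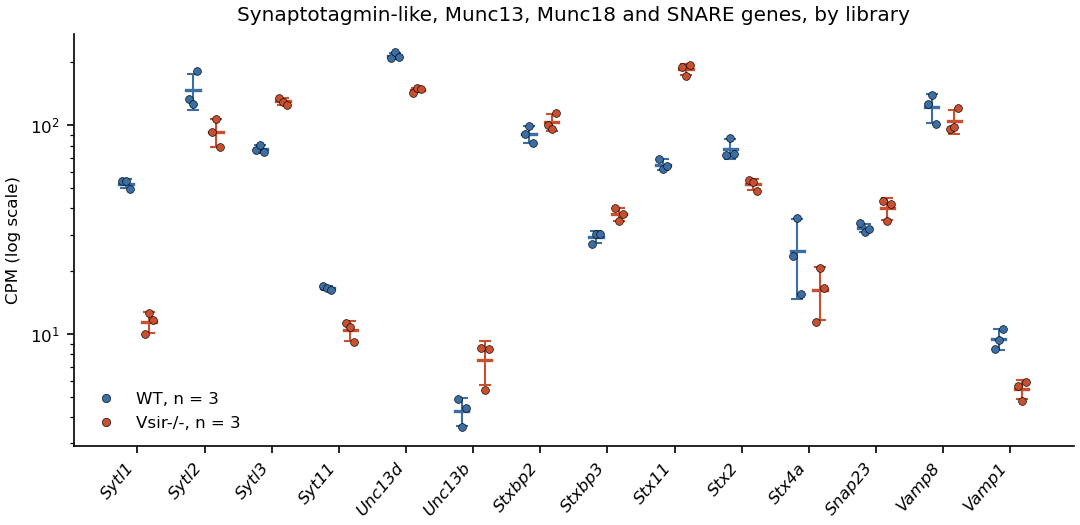
CPM on a log axis of 14 Sytl, Syt, Unc13, Stxbp and SNARE genes, with a point for each library, a bar for the mean and whiskers for the SD (WT blue, Vsir-/- red, 3 libraries each). Sytl1 and Unc13d lie lower and Sytl3 and Stx11 higher in all Vsir-/- libraries, while Stxbp2, Stx4a and Vamp8 overlap between genotypes.

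Among the 22 SNAREs matched by symbol, 3 were higher and 4 lower (31.8%, under the 38.9% of all genes). The 13 syntaxins held 3 higher (Stx11, Stx1a, Stx12) and 2 lower (Stx2, Stx5a), with a median of -0.07. Stx2, a plasma membrane syntaxin, had 72.1, 87.1 and 73.2 CPM in WT and 54.7, 53.3 and 48.4 CPM in Vsir-/- libraries, without overlap (log2 fold change -0.57, SE 0.11, edgeR adjusted p = 0.00163). Stx1a, the neuronal plasma membrane syntaxin, was scarce, with 0.939, 1.04 and 0.582 CPM in WT and 1.67, 2.01 and 3.11 CPM in Vsir-/- libraries, from 55 and 109 counts (log2 fold change 1.37, SE 0.35, edgeR adjusted p = 0.0101). Its groups did not overlap, and the estimate lay between 1.10 and 1.57 when a library was left out. Stx12 of recycling endosomes was 45.6 ± 5.20 CPM in WT and 59.2 ± 5.17 CPM in Vsir-/- libraries (edgeR adjusted p = 0.0238), and the Golgi syntaxin Stx5a 96.5 ± 6.34 and 80.3 ± 5.31 CPM (edgeR adjusted p = 0.0442). Both lost their call in 4 of the 6 fits without a library, with adjusted p of up to 0.0917 for Stx12 (kept without WT replicate 3 or Vsir-/- replicate 2) and 0.162 for Stx5a (without replicate 1 or 2 of either genotype). Stx4a, the plasma membrane syntaxin of most non-neuronal cells, had 23.7, 36.2 and 15.5 CPM in WT and 11.5, 20.8 and 16.7 CPM in Vsir-/- libraries, with replicate 2 highest in both genotypes. These groups overlapped (edgeR adjusted p = 0.105, or 0.0167 without WT replicate 3), as did those of Stx7, a late endosomal syntaxin at 77.3 ± 4.16 and 84.0 ± 7.06 CPM (edgeR adjusted p = 0.343). Stx3 was at or under 1.38 CPM in every library (71 counts in WT and 34 in Vsir-/-, edgeR adjusted p = 0.146).

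Of the 9 VAMP and SNAP genes, 2 were lower and none was higher (22.2%, where 38.9% of all genes were called and 20.1% were lower). Vamp1, a synaptobrevin, had 8.45, 9.39 and 10.6 CPM in WT and 5.65, 4.80 and 5.91 CPM in Vsir-/- libraries (log2 fold change -0.80, SE 0.16, edgeR adjusted p = 0.00279), with no overlap. Snap29, a SNARE of autophagosome fusion, was 33.8 ± 2.07 and 26.9 ± 2.45 CPM (edgeR adjusted p = 0.0397), a call that none of the 6 fits without a library kept (adjusted p up to 0.138). Snap23, the plasma membrane SNARE of granule release outside neurons, had 34.0, 31.0 and 32.0 CPM in WT and 43.4, 34.7 and 42.1 CPM in Vsir-/- libraries; it did not overlap and missed the threshold with an edgeR adjusted p of 0.0513, or 0.0213 without Vsir-/- replicate 2. Vamp8, the granule SNARE of mast cells and platelets, had 126, 139 and 101 CPM in WT and 96.0, 97.7 and 121 CPM in Vsir-/- libraries, which overlap (log2 fold change -0.22, 95% interval -0.52 to 0.07, edgeR adjusted p = 0.212, or 0.0469 without WT replicate 3). Vamp3 of recycling endosomes differed by 0.01 on the log2 scale (95% interval -0.23 to 0.24).

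No exocyst gene passed the threshold, where 38.9% of all genes did. The 8 subunits of this tether, counting both paralogs Exoc6 and Exoc6b among 9 genes, had log2 fold changes from -0.17 (Exoc8) to 0.33 (Exoc5), and 1 of the 9 had an unadjusted p under 0.05. Exoc5 had 110.0, 99.0 and 127 CPM in WT and 153, 149 and 121 CPM in Vsir-/- libraries, which overlap (edgeR adjusted p = 0.0507); DESeq2, RLE factors, voom, the fit with no filter and those without WT replicate 3 (adjusted p 0.0203) or Vsir-/- replicate 3 (0.0133) called it higher. The estimates of Exoc1 (-0.09), Exoc2 (-0.12), Exoc3 (-0.11), Exoc4 (0.06), Exoc6 (0.20), Exoc6b (0.11) and Exoc7 (-0.15) had intervals that reached no further than 0.48 in either direction. Summed over the 9 genes, the level was 678 ± 38.9 CPM in WT and 683 ± 57.1 CPM in Vsir-/- libraries (SD, n = 3). Exoc3l, a gene related to Exoc3 that the symbol rule also takes, behaved otherwise, with 14.3, 11.7 and 12.2 CPM in WT and 3.92, 7.17 and 6.29 CPM in Vsir-/- libraries (log2 fold change -1.13, SE 0.21, edgeR adjusted p = 0.00152).

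The 12 Rab genes of the ER and Golgi, of which 10 were tested, held 2 higher and 2 lower with a median of 0.04, a share near the 38.9% of all genes called. Rab19, a Rab placed at the Golgi, had 62.7, 66.7 and 56.5 CPM in WT and 13.7, 13.8 and 16.6 CPM in Vsir-/- libraries. The genotypes lay 4.21-fold apart in the means, and the log2 fold change was -2.07 (SE 0.12, edgeR adjusted p = 6.64e-07). Rab1b, which with Rab1a governs traffic from the ER to the Golgi, had 399.7, 443 and 376 CPM in WT and 252, 293 and 284 CPM in Vsir-/- libraries, without overlap (log2 fold change -0.56, SE 0.09, edgeR adjusted p = 9.90e-04). Its paralog Rab1a was level at 265 ± 7.05 and 273 ± 12.7 CPM (log2 fold change 0.04, 95% interval -0.13 to 0.22). Per kilobase of exon, Rab1b over Rab1a moved from 2.57 ± 0.256 to 1.70 ± 0.198 (SD, n = 3; two-sided exact permutation p = 0.1). With Rab1b lower without overlap and Rab1a level, this ratio had to separate the genotypes, and its p-value adds no support. How reads that match both paralogs were divided is not given in the sources used here. Rab6a, a Rab of retrograde Golgi traffic, had 66.6, 59.9 and 70.6 CPM in WT and 88.8, 90.3 and 82.1 CPM in Vsir-/- libraries (log2 fold change 0.41, SE 0.10, edgeR adjusted p = 0.00661), a call lost with 1 library per label number and with replicates 1 and 2 summed. Rab18 of the ER and lipid droplets was 141 ± 10.8 and 182 ± 19.3 CPM (edgeR adjusted p = 0.0140), and lost its call without WT replicate 1, WT replicate 2 or Vsir-/- replicate 1 (adjusted p up to 0.0670). Rab2a and Rab2b did not pass.

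Among 14 Rab GTPases of early and recycling endosomes, 3 were higher and 3 lower (42.9%, near the 38.9% of all genes). Rab20, a Rab of endosomes and phagosomes, had 12.02, 14.2 and 7.39 CPM in WT and 40.8, 37.6 and 46.9 CPM in Vsir-/- libraries, 3.72-fold higher in the means. Its log2 fold change of 1.88 (SE 0.20, edgeR adjusted p = 5.33e-05) was the highest of the 102 tested members, and its counts were not whole in any of the 6 libraries. Rab31, which carries cargo between the trans-Golgi network and endosomes, had 94.4, 88.7 and 86.7 CPM in WT and 203, 189 and 166 CPM in Vsir-/- libraries (log2 fold change 1.05, SE 0.10, edgeR adjusted p = 1.81e-05). The groups of both genes were far apart. Rab22a, the paralog of Rab31, was level at 64.3 ± 1.77 and 61.3 ± 1.62 CPM (95% interval of the log2 fold change -0.26 to 0.12), so Rab31 over Rab22a per kilobase went from 2.64 ± 0.192 to 5.75 ± 0.680 (SD, n = 3; two-sided exact permutation p = 0.1). Since Rab31 was higher without overlap and Rab22a was level, this ratio had to separate the genotypes, and its p-value adds no support. The fast recycling Rabs were both lower. Rab4a had 37.8, 43.9 and 40.3 CPM in WT and 23.8, 23.9 and 26.5 CPM in Vsir-/- libraries (log2 fold change -0.72, SE 0.11, edgeR adjusted p = 4.74e-04), and Rab4b was 84.3 ± 9.26 and 57.9 ± 7.22 CPM (log2 fold change -0.54, edgeR adjusted p = 0.00459, a call lost with 1 library per label number, replicates 1 and 3). Neither overlapped between genotypes, and their ratio per kilobase did not separate them (0.542 ± 0.0285 and 0.482 ± 0.0459, SD, n = 3; two-sided exact permutation p = 0.2). Rab11b passed at an edgeR adjusted p of 0.0351 with 200.2 ± 7.75 and 170.2 ± 2.50 CPM, and Rab14 at 0.0490 with 187 ± 2.67 and 218 ± 10.2 CPM. Each kept its call in only 1 of the 6 fits without a library, Rab11b without WT replicate 3 and Rab14 without Vsir-/- replicate 3 (adjusted p in the other fits up to 0.132 and 0.161). Rab11a of slow recycling and the early endosome Rabs Rab5a, Rab5b and Rab5c did not pass, although Rab5b and Rab5c were called without WT replicate 1, and Rab21 was lowest in replicate 2 of both genotypes (37.8 and 28.1 CPM).

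The Rab11 effectors and Rab3 regulators that the rule also takes held 3 higher and none lower of 8 (37.5%, near the 38.9% of all genes; 18.9% of all genes were higher). Rab11fip5, an adaptor of Rab11 on recycling endosomes, had 5.89, 9.56 and 9.32 CPM in WT and 13.9, 19.8 and 19.0 CPM in Vsir-/- libraries (log2 fold change 1.08, SE 0.20, edgeR adjusted p = 0.00177). Rab3ip, the exchange factor that activates Rab8, had 5.32, 5.75 and 6.58 CPM in WT and 8.54, 9.24 and 9.52 CPM in Vsir-/- libraries (log2 fold change 0.63, SE 0.15, edgeR adjusted p = 0.00740), a call lost with 1 library per label number. Neither overlapped. Rab11fip1 was 70.8 ± 1.26 and 92.3 ± 13.8 CPM (edgeR adjusted p = 0.0221), with Vsir-/- replicate 3 nearest to WT at 76.4 CPM, and lost its call without replicate 1 or 2 of either genotype (adjusted p up to 0.0847). Rab3gap1 and Rab3gap2, the subunits of the complex that inactivates Rab3, did not pass (log2 fold changes 0.08 and -0.17).

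Of 6 tested Rab GTPases of late endosomes and lysosomes, 2 were lower (33.3%, where 38.9% of all genes were called and 20.1% were lower). Rab32, which serves lysosome-related organelles, had 16.7, 15.8 and 17.7 CPM in WT and 10.5, 8.75 and 9.40 CPM in Vsir-/- libraries (log2 fold change -0.81, SE 0.13, edgeR adjusted p = 6.54e-04). Rab24, linked to autophagy, had 83.2, 87.4 and 69.3 CPM in WT and 48.8, 50.7 and 58.6 CPM in Vsir-/- libraries (log2 fold change -0.60, SE 0.12, edgeR adjusted p = 0.00209). Both were without overlap. Rab7, the central Rab of late endosomes, was among the most level members, with 279.9, 278 and 299 CPM in WT and 301, 267 and 291 CPM in Vsir-/- libraries (log2 fold change 0.00, 95% interval -0.18 to 0.19). Rab29 overlapped (edgeR adjusted p = 0.0942, or 0.0214 without WT replicate 3), and Rab23, Rab28 and Rab40c, which belong to none of these routes, did not pass.

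Per kilobase of exon, the highest Rab transcripts in WT aILC2s were those of the general routes, with Rab1b at 179 ± 14.96, Rab7 at 109 ± 4.38, Rab2a at 81.8 ± 4.19, Rab8b at 72.3 ± 17.1 and Rab1a at 69.7 ± 1.86 CPM per kb (SD, n = 3). Rab8b could not be placed against Rab2a or Rab1a within its spread. The Rabs of regulated secretion were lower, Rab3d at 11.4, Rab27a at 11.2, Rab37 at 3.54, Rab27b at 1.86 and Rab44 at 0.293 CPM per kb, and Rab27b over Rab27a was 0.166 ± 0.0189 in WT and 0.118 ± 0.00964 in Vsir-/- libraries (two-sided exact permutation p = 0.1). In Vsir-/- libraries Rab1b (122) and Rab7 (109.7) remained the highest, while Rab31 at 48.8 and Rab20 at 30.0 CPM per kb, from 23.6 and 8.06, passed Rab19, which went from 39.3 to 9.35 CPM per kb. Outside the Rab genes, Vamp8 (52.9) and Unc13d (46.0) had the highest levels per kilobase among the SNARE and priming genes matched by symbol in WT. Lengths are of merged exons and say nothing of which transcript the cells make.

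**Figure D4:**
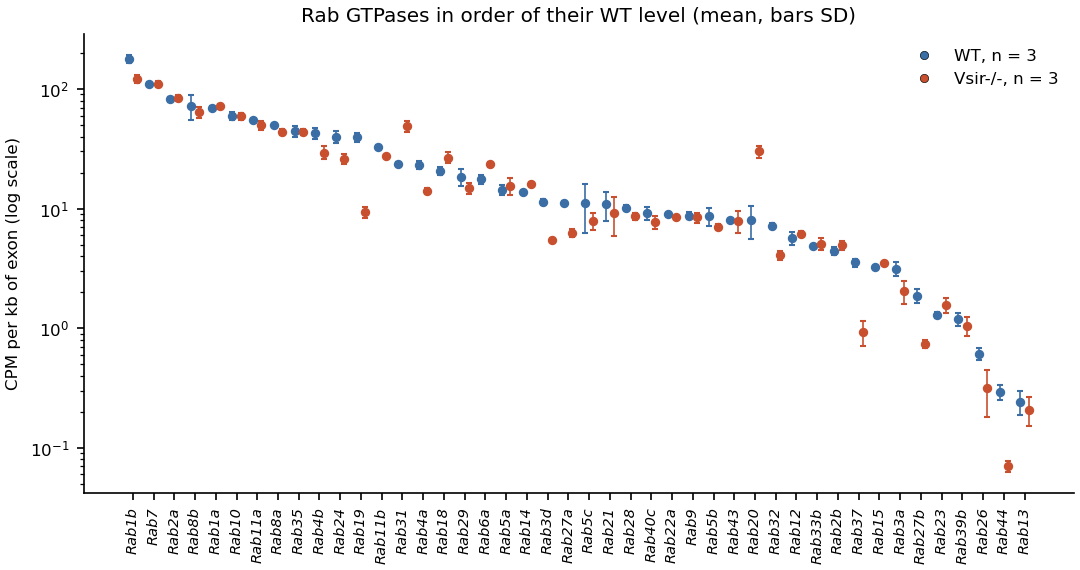
Level of the tested Rab GTPases in CPM per kilobase of merged exon (log axis), ordered by the WT mean; points are means of 3 libraries and bars the SD (WT blue, Vsir-/- red). Rab1b and Rab7 lead in both genotypes, Rab19, Rab37 and Rab44 drop furthest, and Rab20 and Rab31 rise above their neighbours in the WT order.

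A list of 17 tested members known from cytotoxic and secretory granules, compiled with earlier results of these data known, held 2 higher and 8 lower genes (58.8%, where 38.9% of all genes were called) with a median of -0.63, beside -0.01 over all genes. The higher ones were Stx11 and Sytl3, and the lower ones Rab27a, Rab37, Rab3d, Rab44, Unc13d, Sytl1, Sytl2 and Syt11, while Stxbp2, Vamp8, Snap23, Stx4a, Stx3, Stx7 and Rab7 did not pass. The summed level of the 17 was 1303 to 1339 CPM in WT and 1234 to 1297 CPM in Vsir-/- libraries.

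Partners that the symbol rule leaves out were counted in the same fit, where 38.9% of all genes were called; each of the 4 lists had a smaller share, 8.33% of other SNAREs, 30.8% of SNARE regulators and tethers, 36.5% of Rab regulators and 26.7% of Rab effectors. Of 12 other SNAREs tested, 1 was higher and none lower; this was Sec22b of the ER and Golgi, at 221 ± 9.10 and 262 ± 19.2 CPM (edgeR adjusted p = 0.0422), while Ykt6 (log2 fold change -0.31, edgeR adjusted p = 0.0586) and Gosr2 (-0.17, 0.122) did not pass; Ykt6 was called lower without WT replicate 3 or Vsir-/- replicate 3. Of 26 genes listed as SNARE regulators and tethers, 4 were higher and 4 lower, which counts Tom1l1, an endosomal adaptor, among the higher and Napepld, a phospholipase, among the lower; neither is known as a SNARE regulator. Rims2, a Rab3 effector of the synaptic active zone, had 104 counts over the WT libraries and 1 over the Vsir-/- libraries, at 2.50, 1.52 and 1.16 CPM against 0, 0.0608 and 0 CPM. Nbeal2, required for granule formation in platelets, had 176, 183 and 227 CPM in WT and 114, 108 and 82.0 CPM in Vsir-/- libraries (log2 fold change -0.95, edgeR adjusted p = 3.87e-04), and Vps8, of an early endosome tether, was higher (log2 fold change 0.67, edgeR adjusted p = 0.00199). Of 63 Rab regulators, 8 were higher and 15 lower. Rin3, an exchange factor of Rab5 GTPases, had 58.2, 68.8 and 69.1 CPM in WT and 29.6, 29.7 and 29.3 CPM in Vsir-/- libraries (log2 fold change -1.15, edgeR adjusted p = 1.48e-05), its relative Rinl was lower by a log2 fold change of -0.84 (edgeR adjusted p = 3.97e-05), and Tbc1d10c, a GTPase-activating protein of lymphocytes, went from 310.0 ± 32.3 to 144 ± 14.3 CPM (log2 fold change -1.11, edgeR adjusted p = 2.30e-05). Of 45 Rab effectors, 4 were higher and 8 lower, among them Rilpl2 (log2 fold change 1.06), Lrrk1 (-0.91) and the phosphatase Inpp5b (-0.74).

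The remaining 6 rows of the family are Rab5if, which is not a Rab GTPase, antisense transcripts and pseudogenes. Rab5if was 129 ± 13.5 and 168 ± 14.3 CPM (log2 fold change 0.37, edgeR adjusted p = 0.0155), a call lost without WT replicate 1 (adjusted p 0.0558). Rab10os, Rab26os, Rab11b-ps2 and Vamp7-ps did not pass, and their counts are uncertain, since reads of an antisense or copied gene can belong to its partner and no use of strand is stated.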

How the data were processed

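RNA of sorted lung aILC2s was sequenced in 3 WT and 3 Vsir-/- libraries, each made from 10 pg of RNA with a SMARTer kit for low input. As deposited by the authors, the values are estimated counts per gene, and the submitters' processing notes name Partek 10.0, STAR 2.7.8, DESeq2 without a version and the mm10 genome; the annotation and any filter are not given in the sources used here. Cells were gated as CD45+, lineage-negative, ST2+ and CD127+, with CD3ε, CD335, FcεRIα, CD11b and CD11c among the lineage markers. The same label number marks replicates 1 and 2 within a genotype, and the suffix S0 is found on WT replicates 2 and 3 alone.

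Counts were rounded to whole numbers and tested with the quasi-likelihood F test of edgeR 4.0.16 in R 4.3.3 (TMM factors; filterByExpr with a minimum count of 10 and a minimum total of 15; genotype as the only term), with Benjamini-Hochberg adjustment over 13166 genes and a threshold of 0.05. Of a library's values, 60.8% to 69.5% were within 0.01 of a whole number. A count of 3 corresponds to 0.103 to 0.191 CPM in these libraries, which covers counting error only. Levels per kilobase used merged exons of GENCODE on GRCm38, where all 107 symbols matched. Ratios within a library were compared by exact permutation, for pairs chosen with earlier results of these data known. The script was tested on simulated data. Alternatives were DESeq2 1.42.0, limma 3.58.1 voom with quality weights, RLE and upper-quartile factors, other filters and thresholds, thinned counts, a replicate block, summed or omitted libraries, and, added after the data were seen, 1 library per label number.

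The genes, their role groups and the lists were chosen with earlier results of these data known. Members were named by a rule: those past the threshold with a log2 change of at least 1, the 3 with the smallest p and the most abundant in each role group, the granule list and the exocyst, and 3 genes by p of each outside list; all other members named in the text were named after their values were seen. Some members are counted in their groups but not reported by name here.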

Additional observations from a re-analysis of the deposited data

How the results depend on the processing

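Of the 39 members called, 26 (8 higher, 18 lower) were called in all 6 fits that left out a library, and 18 (5 higher, 13 lower) in all 18 refits; the 5 higher were Rab11fip5, Rab20, Rab31, Stx11 and Sytl3. Left out in turn, single libraries gave 9 to 17 members higher, 18 to 24 lower and 3922 to 4950 of all genes called. Without the S0 libraries, which leaves 1 WT library whose spread is assumed to be that of the Vsir-/- libraries, 5 members were higher, 14 lower and 2480 of all genes were called; the loss includes Sytl2, Vamp1, Stx2, Stx1a and Rab4b, and fewer samples entered this fit. With replicates 1 and 2 summed, 9 members were higher. An adjusted p of 0.01 left 7 members higher and 3327 of all genes, and a change of at least 1.5-fold left 8 higher, 15 lower and 2954 of all genes. With 1 library per label number, 9 (replicates 1 and 3) and 6 (replicates 2 and 3) members were higher, and 3240 and 3216 of all genes were called. DESeq2 gave 18 higher and 20 lower, and limma voom 18 and 29. No call changed its direction.

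Deviations of equally numbered libraries correlated at -0.0858, 0.201 and -0.449 over 8567 genes, and no library was closest to its own number. These values come from deviations within groups of 3 libraries, and they cannot decide whether libraries of the same number share a preparation. With a replicate block, 12 members were higher and 19 lower, with 4094 of all genes called. Depth limits Rab44, Stx1a, Stx3, Rab26 and Rab13, which have few counts. For members reported above, calls that turn on 1 library are named beside their values. Of the members not reported above, Stx16 was called without Vsir-/- replicate 2 or WT replicate 3. Vamp5 was called without Vsir-/- replicate 3, and Rab11fip4 without WT replicate 3.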
